A study of Bos taurus with 17 samples.

Results

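Amino acid transporters of the SLC1, SLC3, SLC6, SLC7, SLC36, SLC38 and SLC43 families were followed at 3 stages of oocyte competence in the cumulus of the cow, the layer of somatic cells around the oocyte. A probe, a spotted sequence of 60 bases, was a member when its gene name carried one of these families with a member number, or when its description in the array files named one of them as a solute carrier family. By this rule 64 of 21475 probes were members, and they stood for 60 of 19862 gene names. The SLC7 family gave 22 probes and the SLC6 family 18, the SLC1 and SLC38 families 7 each, SLC36 and SLC43 4 each, and SLC3 2. The name alone was enough for 18 probes, and 46 entered through their description. One member, SLC7A6OS, is named for lying opposite SLC7A6 and is not itself a transporter, and RefSeq counts the member LOC504704 as a pseudogene.

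Amino acids do not cross membranes unaided, and these families carry them. SLC1 members take up glutamate or small neutral amino acids with sodium. SLC7 members exchange large neutral or cationic amino acids, and several of them reach the cell surface only when bound to a heavy chain of the SLC3 family, SLC3A2 for LAT1 (SLC7A5) and LAT2 (SLC7A8), and SLC3A1 for SLC7A9. SLC6 members carry neutral amino acids, glycine, GABA, creatine or monoamines with sodium and chloride, SLC36 members move small amino acids with protons, SLC38 members take up glutamine, alanine and related amino acids with sodium, and SLC43A1 and SLC43A2 let large neutral amino acids pass down their gradient. Cumulus cells are joined to the oocyte by gap junctions until the cumulus expands, and are known to supply it with amino acids that it takes up poorly by itself.

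NC1 cells came from 6 prepubertal calves of 3 to 6 months, out of follicles of 3 to 6 mm, around oocytes at prophase I that were not yet competent for development. C1 cells came from 6 adult cows of different ages, around competent oocytes at the same meiotic phase. In both cases ovaries were collected at slaughter and the cumulus was compact. C2 cells came from 5 cycling non-lactating Holstein cows of 3 to 5 years, treated with progestagen implants and with FSH and LH to stimulate the ovary. Prostaglandin F2α was given 60 h before the ultrasound-guided collection from follicles above 8 mm. These complexes had an expanded cumulus around oocytes in metaphase II. The age of the animals cannot be told apart from the difference between NC1 and C1. Follicle size, hormone treatment, way of collection and source of the cows cannot be told apart from that between C1 and C2. Between NC1 and C2 all of these, age included, differ together. Labels give the tissue as ovarian follicles, and the methods describe cumulus cells separated from the oocyte. The 17 arrays, 1 for each animal, were taken as the replicates of these stages.

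Between 66.2% and 82.8% of probes were well above background on the 17 arrays, and no spot was saturated. All 14 of the listed cumulus and granulosa markers were on the array and were well above background on at least 1 array of each stage. Their summed scaled signal, in multiples of the array's median probe, was 4118 to 9154 at NC1, 4576 to 6343 at C1 and 1482 to 4806 at C2. Oocyte markers summed to 64.9 to 154 at NC1, 5.08 to 57.1 at C1 and 3.40 to 7.87 at C2, and 6 of the 11 on the array were not well above background on any C2 array. Leukocyte markers summed to 26.7 to 51.8 at NC1, 22.4 to 39.5 at C1 and 20.0 to 108 at C2, with the 2 highest sums on C2 replicates 3 and 4 and the lowest on C2 replicate 2. The 4 red blood cell markers stayed below 1 in sum on all 17 arrays. Endothelial markers summed to 1.85 to 3.44 at NC1, 1.69 to 2.22 at C1 and 3.35 to 11.8 at C2, and theca and stroma markers to 173 to 307, 198 to 306 and 302 to 604. Of 6 endothelial markers above background at every stage, KDR alone was higher at C2 than at C1 (log2 3.58) and 0 were lower, at an adjusted p under 0.01 in limma. TEK was lower at C2 than at NC1 (log2 -1.61). Of 8 theca and stroma markers, LUM and COL1A1 were higher at C2 than at C1 (log2 3.79 and 1.15) and 0 lower. Of 12 leukocyte markers 6 were higher at C2 than at C1 and 0 lower, with a median log2 difference of 1.87. Of 12 cumulus and granulosa markers 0 were higher and 9 lower, with a median of -1.64. Of 3 oocyte markers 0 were higher and 0 lower. Of all probes above background at every stage 15.3% were higher and 12.8% lower. The part of these other cell types in the transporter results was not tested, and in bulk samples fewer cells of a type and less RNA per cell cannot be told apart.

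The deposited table gives the sequence of 38 member probes, and 6 of them are printed here because the results turn on them or because they show how separate the related members are. SLC7A9, SLC6A18 and SLC38A6 fell at C2, both probes of SLC43A3 were brighter at C2, and SLC6A11 stands beside SLC6A18. Each probe is written 5′ to 3′ as deposited, in capitals over its whole length.

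SLC7A9 (A_73_107262): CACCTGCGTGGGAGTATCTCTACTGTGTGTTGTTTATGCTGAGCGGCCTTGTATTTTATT

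SLC6A18 (A_73_114165): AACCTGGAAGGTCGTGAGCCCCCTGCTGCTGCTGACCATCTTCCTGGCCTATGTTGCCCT

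SLC6A11 (A_73_108333): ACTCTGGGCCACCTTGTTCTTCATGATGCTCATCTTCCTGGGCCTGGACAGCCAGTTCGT

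SLC38A6 (A_73_103452): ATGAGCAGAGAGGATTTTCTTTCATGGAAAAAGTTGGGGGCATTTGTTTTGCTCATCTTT

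SLC43A3 (A_73_120774): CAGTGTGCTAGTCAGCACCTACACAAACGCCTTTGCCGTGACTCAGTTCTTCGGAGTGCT

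SLC43A3 (A_73_114816): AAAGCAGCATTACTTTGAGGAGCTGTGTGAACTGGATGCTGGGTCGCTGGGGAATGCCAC

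The 38 sequences were all different from each other. The longest run of identical bases between any pair of them was 11, between the SLC6A18 and SLC6A11 probes above. Their GC content started at 26.7%, for SLC7A5, and had a median of 45.0%. The polyadenylation signals AATAAA or ATTAAA, searched on the strand as written, stood in 5 of the 38 (13.2%) and in 18.6% of the 15256 probes of the table. Coordinates are not given, since the array files name no genome build.

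The transporters were not all detected. Of the 64 probes, 29 were well above background on all 17 arrays, 9 on none and 26 on some. On every array of the stage, 33 were well above background at NC1, 38 at C1 and 34 at C2. A probe was tested when 80% or more of the NC1, of the C1 and of the C2 arrays had it above background, which held for 33 members (51.6%, against 64.6% of all probes). These were 5 of 7 SLC1 probes, both SLC3 probes, 8 of 18 for SLC6, 9 of 22 for SLC7, 2 of 4 for SLC36, 4 of 7 for SLC38 and 3 of 4 for SLC43. SLC1A2 and SLC1A6, which are glutamate transporters of the brain, were not well above background on any array, and neither were SLC36A3, SLC7A14, SLC7A6OS, LOC515755, LOC506868, LOC515600 and LOC617111. Signals are given as log2 scaled signal, the log2 of a probe's signal minus that of the array's median probe, so that 0 is the median probe of the array. The level of one probe says nothing against that of another.

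**Figure D1:**
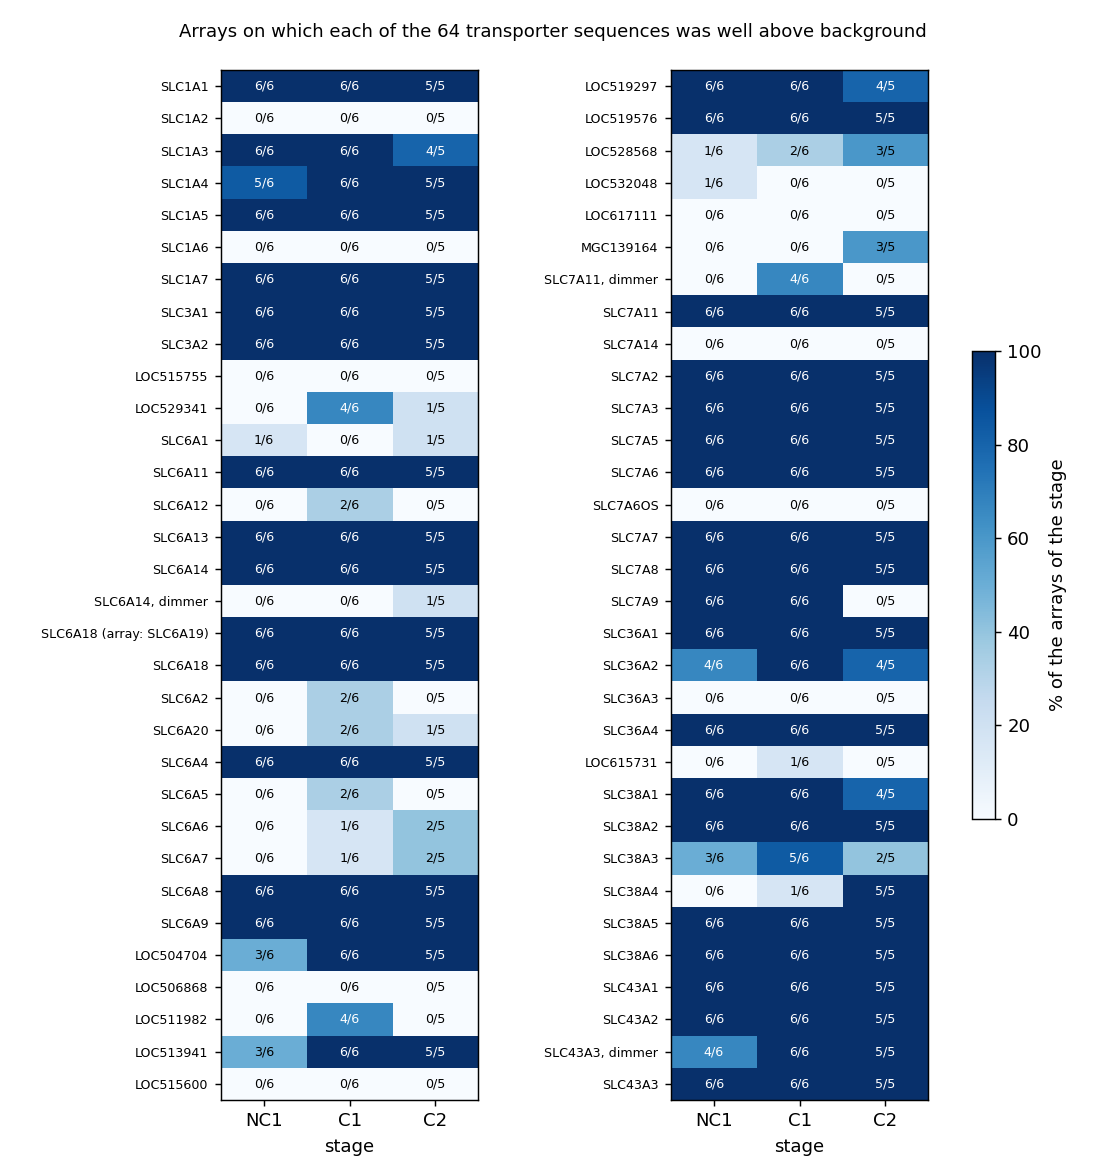
Number of arrays on which each of the 64 transporter probes was well above background, out of 6 NC1, 6 C1 and 5 C2 arrays (columns), ordered by family and gene, with the colour giving the percentage of the arrays of the stage. SLC7A9 went from 6 of 6 arrays at NC1 and at C1 to 0 of 5 at C2, and SLC38A4 from 0 and 1 to 5 of 5.

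C2 was the stage that stood apart. Of the 33 tested members, 13 differed among the 3 stages (39.4%, against 28.6% of all 13865 tested probes), at an adjusted p under 0.01 in limma's fit over all tested probes with Benjamini-Hochberg adjustment, the threshold used throughout. In the comparison of C2 with C1, 7 members were higher (21.2%, with 15.3% of all probes) and 6 lower (18.2%, with 12.8%). In comparison to NC1, 7 were higher at C2 (15.5% of all probes) and 6 lower (12.6%). The same direction was called in both comparisons for 12 members, which share the C2 arrays. No member differed between C1 and NC1 (0.0577% of all probes, 8 in number), and 2 members, SLC1A7 and SLC6A13, had an unadjusted p under 0.05 there. The arrays of C2 and C1 did not overlap for 9 members (27.3%, with 21.6% of all probes), and those of C2 and NC1 for 7 (21.2%, with 20.9%). The shares of members called were thus close to, and somewhat above, those of all probes. The median change of the tested members from C1 to C2 was -0.10 on the log2 scale, next to 0.02 for all tested probes, and from NC1 to C2 it was 0.16 next to 0.11. Rises and falls were thus mixed across the families. In the exact permutation test over arrays, SLC1A4, SLC7A8, SLC36A1, SLC43A2 and both SLC6A18 entries reached p = 0.00216 in both comparisons, the smallest p possible for 5 arrays against 6. This p is reached only where the arrays do not overlap, so it restates the lack of overlap given above. The share of all probes that reach it in both comparisons was not computed, and these comparisons share the C2 arrays.

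**Figure D2:**
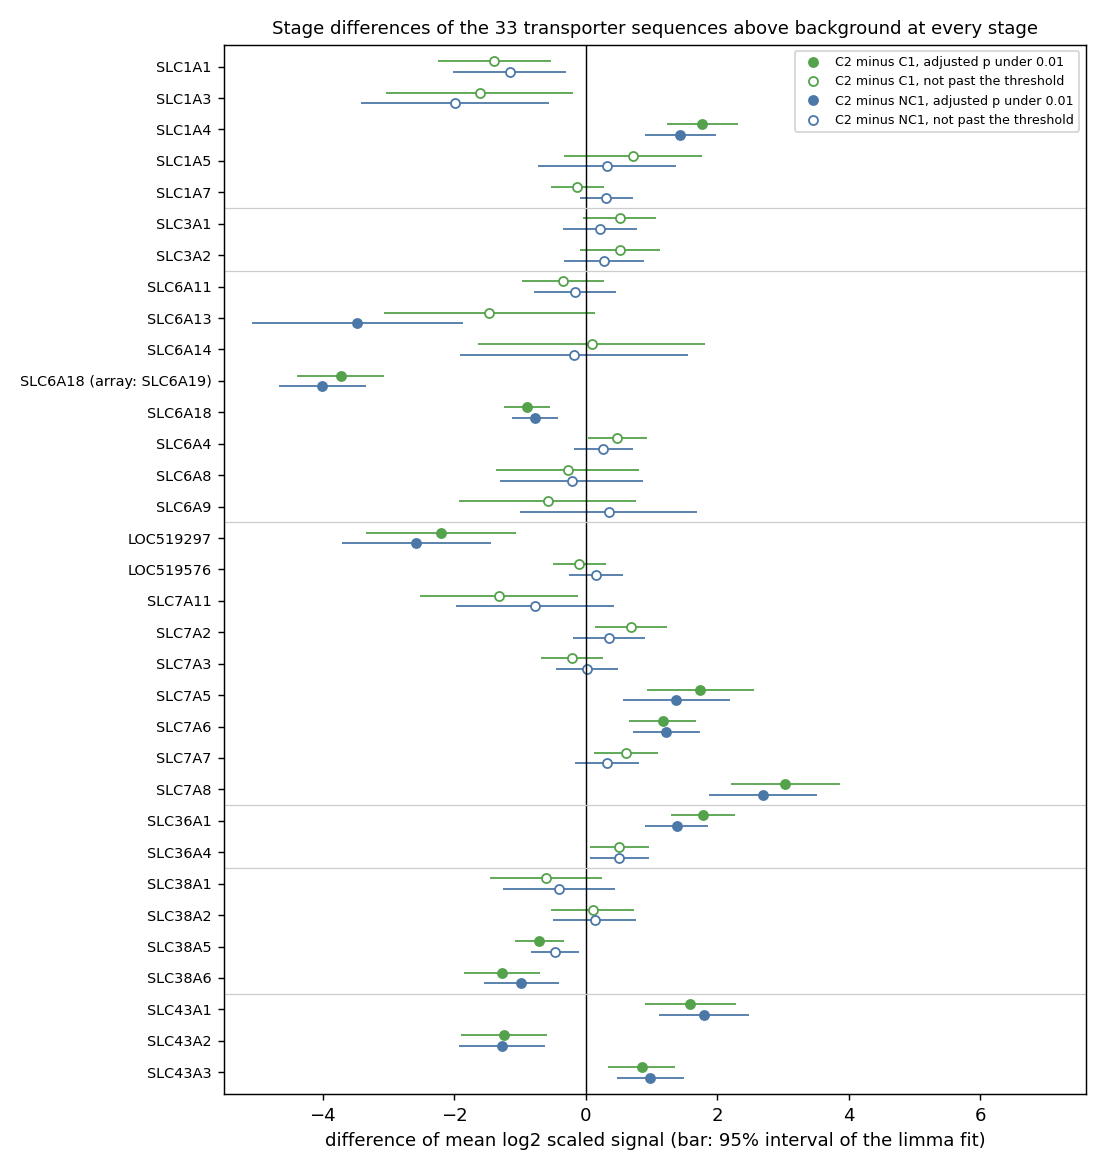
Difference of mean log2 scaled signal of C2 against C1 (green) and against NC1 (blue) for the 33 tested probes, grouped by family and separated by grey lines, with 95% intervals of the limma fit. Filled points passed an adjusted p of 0.01, and they run from -4.01 for the SLC6A18 entry that the array calls SLC6A19 to 3.03 for SLC7A8.

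In the SLC7 family, 3 of the 9 tested probes were higher at C2 than at C1, those of SLC7A8, SLC7A5 and SLC7A6, and 1 was lower. SLC7A8 encodes LAT2, which exchanges neutral amino acids of all sizes across the basolateral membrane of epithelia. Its log2 scaled signal had a lowest, median and highest value of -0.15, 0.83 and 1.67 at NC1 and of -0.49, 0.37 and 1.02 at C1. At C2 it was 2.52, 4.90, 3.17, 3.26 and 3.13 in replicates 1 to 5. The C2 arrays were all higher than any NC1 or C1 array. The rise was 8.19-fold against C1 (log2 3.03, SE 0.39, adjusted p = 7.3e-06 in limma) and 6.48-fold against NC1 (log2 2.70, SE 0.39, adjusted p = 2.7e-05), and it was seen on all 5 slides that held a C2 array.

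SLC7A5 encodes LAT1, the exchanger of leucine and other large neutral amino acids of growing cells. Its lowest, median and highest log2 scaled signals were 4.91, 5.00 and 5.74 at NC1 and 4.43, 4.69 and 5.40 at C1. At C2 they were 5.39, 5.51, 7.73, 7.81 and 6.27 in replicates 1 to 5. C2 replicates 3 and 4 stood well above the others. The lowest C2 array overlapped both earlier stages, and C2 replicate 2 overlapped NC1. The rise over C1 was 3.34-fold (log2 1.74, SE 0.39, adjusted p = 0.0015). This rise was not called in the one-factor test with unequal spreads (adjusted p = 0.0818). The difference from NC1 was 2.60-fold (log2 1.38, SE 0.39, adjusted p = 0.0083), and it lost the threshold in 22 of 30 alternative analyses. Within scan day 1, to which C2 replicates 1, 2 and 5 belong, the difference from C1 was 0.90 and within day 2 it was 2.99.

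SLC7A6 encodes y+LAT2, which exchanges arginine for glutamine and leucine. It lay between -1.02 and -0.50 at NC1 (median -0.73), between -1.02 and -0.23 at C1 (median -0.71), and was 0.24, -0.28, 0.78, 1.40 and 0.26 on the C2 arrays. The C2 arrays did not overlap those of NC1, and 1 of them fell just below the highest C1 array. The rise at C2 was 2.25-fold over C1 (adjusted p = 8.2e-04) and 2.33-fold over NC1 (adjusted p = 5.9e-04). The other arginine exchanger, SLC7A7 (y+LAT1), did not pass in either comparison (log2 0.62 and 0.33, adjusted p = 0.041 and 0.28). C2 replicate 2 was at 2.22 for SLC7A7, and the other 4 C2 arrays at 3.47 to 3.78.

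The heavy chains that these exchangers bind did not pass the test. SLC3A2, partner of LAT1, LAT2 and both y+LAT proteins, had a difference between C2 and C1 of 0.52 (95% interval -0.08 to 1.13, adjusted p = 0.16). Its C2 arrays were at 6.02, 4.49, 6.45, 6.67 and 6.13, next to 5.19 to 6.00 at C1 and 5.49 to 5.81 at NC1. All C2 arrays but replicate 2 were above the C1 arrays. SLC3A1, the partner of SLC7A9, had a difference of 0.51 (-0.05 to 1.07, adjusted p = 0.13).

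In the SLC43 family, 2 carriers of the same kind of substrate went opposite ways. SLC43A1, or LAT3, had a lowest, median and highest signal of 2.12, 2.46 and 3.33 at NC1 and of 2.13, 2.69 and 3.25 at C1. On the C2 arrays it was 5.27, 3.25, 3.89, 4.21 and 5.06. C2 replicate 2 was level with the highest earlier arrays, and the other 4 were above all of them. SLC43A1 rose 3.01-fold over C1 (log2 1.59, SE 0.33, adjusted p = 7.8e-04) and 3.47-fold over NC1 (adjusted p = 2.6e-04).

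SLC43A2, or LAT4, fell. It lay between 6.31 and 7.08 at NC1 (median 6.41), between 6.20 and 6.87 at C1 (median 6.55) and was 5.80, 3.71, 5.38, 5.53 and 6.04 at C2. All 5 C2 arrays were below all 12 others, with replicate 2 the lowest by far. Its signal fell by 1.24 on the log2 scale from C1 (2.37-fold, adjusted p = 0.0037) and by 1.27 from NC1 (2.41-fold, adjusted p = 0.0032), the second not called with normexp background correction. Neither fall was called in the one-factor test with unequal spreads (adjusted p = 0.101 and 0.097). LAT4 is known from kidney and gut, where it lets neutral amino acids leave the cell.

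SLC43A3, a transporter of purine nucleobases rather than of amino acids, was a member through its family name. Its brighter probe lay at -2.20 to -1.05 at NC1, -1.97 to -1.01 at C1 and -0.79, -0.13, -1.09, -0.69 and -0.55 at C2, so that the lowest C2 array overlapped both other stages. The difference was 0.85 against C1 (adjusted p = 0.0095) and 0.98 against NC1 (adjusted p = 0.0035), and the first of these was under the threshold by so little that 18 of 30 alternative analyses lost it. The second lost it without C2 replicate 2, among others (4 of 30), and was 0.33 with normexp background correction. The dimmer probe reached detection on 4 of 6 NC1 arrays, so it was not tested in the main comparison. With probes tested when 2 of the 3 stages were above background, it rose by 1.98 over C1 (adjusted p = 9.9e-05) and 2.31 over NC1 (adjusted p = 2.0e-05), without overlap. Both probes thus moved the same way, by different amounts.

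SLC7A9, the light chain b0,+AT that takes up cystine and cationic amino acids with SLC3A1, was the member lost from detection at C2. It was well above background on all NC1 and C1 arrays and on none of the C2 arrays. Its log2 scaled signal was -1.97 to -0.80 at NC1 (median -1.27) and -2.63 to -1.70 at C1 (median -2.34), and its C2 arrays read -5.09, -5.74, -4.45, -5.59 and -5.20, where the probe was not detected. For each C2 array its dimmest detected probe was taken, or the signal of SLC7A9 itself where that is higher. On every C2 array SLC7A9 itself was the higher, so its own undetected readings were used. Against these readings SLC7A9 was 7.92-fold lower at C2 than at C1 and 15.2-fold lower than at NC1. These folds rest on background readings and are estimates rather than lower limits. No p is given for these falls, since the C2 readings of SLC7A9 are background. Between C1 and NC1 the difference was -0.94 (SE 0.24), with an adjusted p of 0.093 in the fit with probes above background in 2 of the 3 stages.

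LOC519297 was the 1 tested entry of the CAT-3 kind that passed. The array describes it as similar to CAT-3, a carrier of arginine and lysine, and RefSeq gave no other name. It lay at -0.43 to 1.61 at NC1 (median 0.97), at -0.22 to 1.23 at C1 (median 0.41) and at 0.09, -0.30, -2.89, -3.38 and -2.41 at C2. C2 replicate 1 overlapped both other stages, C2 replicate 2 overlapped NC1 and lay just below C1, and the other 3 lay below both. The fall was 4.61-fold against C1 (log2 -2.20, SE 0.54, adjusted p = 0.0032) and 5.98-fold against NC1 (adjusted p = 9.4e-04), and with normexp background correction the differences were -1.15 and -1.45. The call against C1 lost the threshold without C2 replicate 3 (adjusted p = 0.012) or without C2 replicate 4 (adjusted p = 0.011). Both calls lost it in the one-factor test with unequal spreads (adjusted p = 0.0923 and 0.0622).

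For the other entries described as CAT-3 or similar to it no fall was called. The probe whose gene number is SLC7A3 in RefSeq changed by -0.21 between C1 and C2 (95% interval -0.68 to 0.26) and LOC519576 by -0.10 (-0.51 to 0.31). The array describes another probe as SLC7A3, that of MGC139164 by gene number, so which of them reports SLC7A3 is uncertain. LOC504704 and LOC513941 were well above background on all C1 and C2 arrays and on 3 of 6 NC1 arrays each. MGC139164 was well above background on 3 of 5 C2 arrays and on none of the other 12, so no fold is given. LOC528568 was detected on 1 NC1, 2 C1 and 3 C2 arrays, and LOC511982 on 4 of 6 C1 arrays only. MGC139164 lay at -4.13, -5.20, -1.97, -2.65 and -3.26 on the C2 arrays, close to the limit of detection. Its undetected readings ran from -6.17 to -4.41 at NC1, where they overlapped C2, and from -6.95 to -5.89 at C1. SLC7A2, the CAT-2 carrier of arginine, had a difference of 0.69 between C2 and C1 (adjusted p = 0.044).

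SLC7A11, the cystine-glutamate exchanger xCT, did not pass the test (log2 -1.32 between C2 and C1, 95% interval -2.52 to -0.12, adjusted p = 0.073). Its C1 arrays lay at 0.52 to 1.57 and its C2 arrays at -0.50, -1.94, 1.39, 1.53 and -1.44. C2 replicates 3 and 4 were within the range of C1 and the others below it. A dimmer SLC7A11 probe was well above background on 4 of the 6 C1 arrays and on none at NC1 or C2.

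The SLC6 family only fell where it was called. The largest fall among all tested members was that of a probe that the array describes as SLC6A19 and whose gene number belongs to SLC6A18 in RefSeq, so which of these B0AT transporters of neutral amino acids it reports is uncertain. Its lowest, median and highest signals were 1.84, 2.84 and 3.66 at NC1 and 1.92, 2.41 and 3.08 at C1. At C2 it was -1.85, -0.66, -0.93, -0.69 and -2.0. The C2 arrays lay far below all others. The fall was 13.2-fold from C1 (log2 -3.73, SE 0.32, adjusted p = 4.8e-08) and 16.1-fold from NC1 (log2 -4.01, SE 0.32, adjusted p = 2.0e-08), and with normexp background correction the differences were -2.78 and -2.79.

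The probe that the array describes as SLC6A18, a name its gene number did not give in RefSeq, fell as well, by less. It was at 7.49 to 7.92 at NC1 (median 7.61), 7.53 to 8.04 at C1 (median 7.74) and 6.77, 6.74, 6.53, 7.19 and 7.17 at C2, without overlap. It fell by 0.90 from C1 (1.86-fold, SE 0.16, adjusted p = 2.7e-04) and by 0.77 from NC1 (1.71-fold, adjusted p = 0.0011), the second not called with normexp background correction. Both falls were seen on all 5 slides. In kidney and gut B0AT transporters take neutral amino acids back from the lumen.

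SLC6A13, or GAT2, carries GABA and taurine. It ranged from -1.98 to 3.68 at NC1 (median 1.03), from -1.90 to 0.50 at C1 (median -0.78) and was -1.72, -2.02, -2.32, -2.39 and -2.44 at C2. NC1 replicates 6 and 2 were the highest of all arrays, while NC1 replicate 3 was level with C2. SLC6A13 was 11.1-fold lower at C2 than at NC1 (log2 -3.48, SE 0.76, adjusted p = 0.0014; -4.13 without NC1 replicate 3 and -2.36 with normexp background correction), without a call between C2 and C1 (log2 -1.47, adjusted p = 0.14) or between C1 and NC1 (log2 -2.01, adjusted p = 0.31). The summed signal of the oocyte markers also was highest on NC1 replicates 2 and 6, at 154 and 119, and lowest among the NC1 arrays on replicate 3, at 64.9. The part of oocyte RNA in this result was not tested.

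The other SLC6 members that were tested did not pass. SLC6A9, the glycine transporter GLYT1, which is known to bring glycine into mouse oocytes and embryos, had a median of 4.83 at NC1, 5.74 at C1 and 5.87 at C2. Its C2 arrays fell in 2 sets, at 5.87, 5.93 and 6.47 in replicates 1, 2 and 5 and at 3.45 and 3.53 in replicates 3 and 4. SLC6A14, the broad carrier ATB0,+, split the other way, at -1.86, -0.99 and -2.79 and at 3.74 and 2.45, around C1 arrays that lay between -0.45 and 0.34. The difference of the means of C2 and C1 was -0.58 for SLC6A9 (95% interval -1.93 to 0.77) and 0.09 for SLC6A14 (-1.64 to 1.82), wide intervals that leave its size unsettled. SLC6A8, the creatine transporter, had C2 values of 0.40, 1.47, -1.58, -1.56 and 0.07. SLC6A4, the serotonin transporter, and SLC6A11, the GABA transporter GAT3, differed by 0.48 and -0.34 from C1 (adjusted p = 0.081 and 0.38). LOC529341, described as similar to SLC6A16, was detected on 4 of 6 C1 arrays, on 1 C2 array and on no NC1 array.

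In the SLC1 family SLC1A4 rose. It encodes ASCT1, an exchanger of serine, alanine and cysteine. Its signal was -2.94 to -1.78 at NC1 (median -2.32), -3.20 to -2.47 at C1 (median -2.56) and -1.26, -0.52, -0.22, -0.73 and -1.74 at C2. No C2 array overlapped the earlier stages, though the lowest one came close to the highest NC1 array. The rise was 3.42-fold over C1 (log2 1.77, SE 0.26, adjusted p = 2.3e-05) and 2.70-fold over NC1 (log2 1.44, adjusted p = 2.1e-04). With normexp background correction the 2 differences were 0.79 and 0.42, and the second was not called (adjusted p = 0.0886). Neither rise was called in the one-factor test with unequal spreads (adjusted p = 0.0115 and 0.0199).

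SLC1A5, or ASCT2, the glutamine exchanger, was not called (log2 0.72 against C1, 95% interval -0.33 to 1.77, adjusted p = 0.27). Its C2 arrays were at 3.13, 1.53, 5.08, 5.37 and 3.36, and the C1 arrays at 2.36 to 3.35. Among the glutamate transporters, SLC1A1 (EAAC1) was 2.62-fold lower at C2 than at C1 and missed the threshold (adjusted p = 0.011), although 4 of its 5 C2 arrays were below all C1 arrays. SLC1A3 (GLAST) had C2 values of -2.26, -5.83, 0.11, -1.23 and -2.47 next to -1.47 to -0.17 at C1 (adjusted p = 0.065). SLC1A7 differed by -0.13 (adjusted p = 0.62).

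SLC36A1, which encodes PAT1, an exporter of small amino acids from lysosomes and a carrier at the surface of gut cells, was the SLC36 member that rose. Its lowest, median and highest signals were 2.98, 3.64 and 4.01 at NC1 and 2.81, 3.14 and 3.77 at C1. At C2 they were 5.13, 4.26, 5.11, 5.22 and 5.03. All C2 arrays lay above the others, with replicate 2 the lowest. The rise was 3.44-fold over C1 (log2 1.78, SE 0.23, adjusted p = 6.7e-06) and 2.60-fold over NC1 (log2 1.38, SE 0.23, adjusted p = 1.1e-04). SLC36A4 was 0.51 higher at C2 than at C1, with an adjusted p of 0.062. SLC36A2 was detected on 4 of 6 NC1 arrays, all C1 arrays and 4 of 5 C2 arrays.

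Of the sodium-coupled SLC38 carriers, SLC38A6 and SLC38A5 were lower at C2. SLC38A6 was at 2.70 to 3.70 at NC1 (median 3.07), 2.94 to 3.98 at C1 (median 3.42) and 2.54, 1.33, 1.71, 2.22 and 2.92 at C2. It fell by 1.28 from C1 (2.42-fold, SE 0.27, adjusted p = 0.0011), without overlap. This fall was not called in the one-factor test with unequal spreads (adjusted p = 0.0333). The fall of 0.98 from NC1 (adjusted p = 0.0079) came with overlapping arrays, and it lost the threshold in 15 of 30 alternative analyses.

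SLC38A5, or SNAT5, a carrier of glutamine, glycine and serine, was at 3.74 to 4.19 at C1 and at 3.37, 3.48, 3.03, 3.41 and 2.93 at C2. It fell by 0.71 from C1 (1.63-fold, SE 0.18, adjusted p = 0.0037). Leaving out C1 replicate 4, C2 replicate 3 or C2 replicate 5 took this to an adjusted p of 0.010, 0.012 and 0.013. The difference from NC1 was -0.47 (adjusted p = 0.042).

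SLC38A4, or SNAT4, carries neutral and cationic amino acids and is best known from liver and placenta. It was well above background on all 5 C2 arrays, on 1 of 6 C1 arrays and on no NC1 array. On the C2 arrays it was -3.39, -3.50, -2.01, -1.53 and -3.91, and no earlier array exceeded -4.55. Its fold over NC1 was 5.07, taken against its undetected NC1 readings or, where higher, the dimmest detected probe of the array. This fold is an estimate from background readings rather than a lower limit. At C1 the probe was measured on 1 array only, so no fold against C1 is given. SLC38A2, or SNAT2, which rises in many cells that lack amino acids, differed by 0.10 between C2 and C1 (95% interval -0.52 to 0.73), and SLC38A1 by -0.61 (-1.46 to 0.25). SLC38A3, which is known from mouse cumulus cells, was well above background on 3 NC1, 5 C1 and 2 C2 arrays and was not tested.

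**Figure D3:**
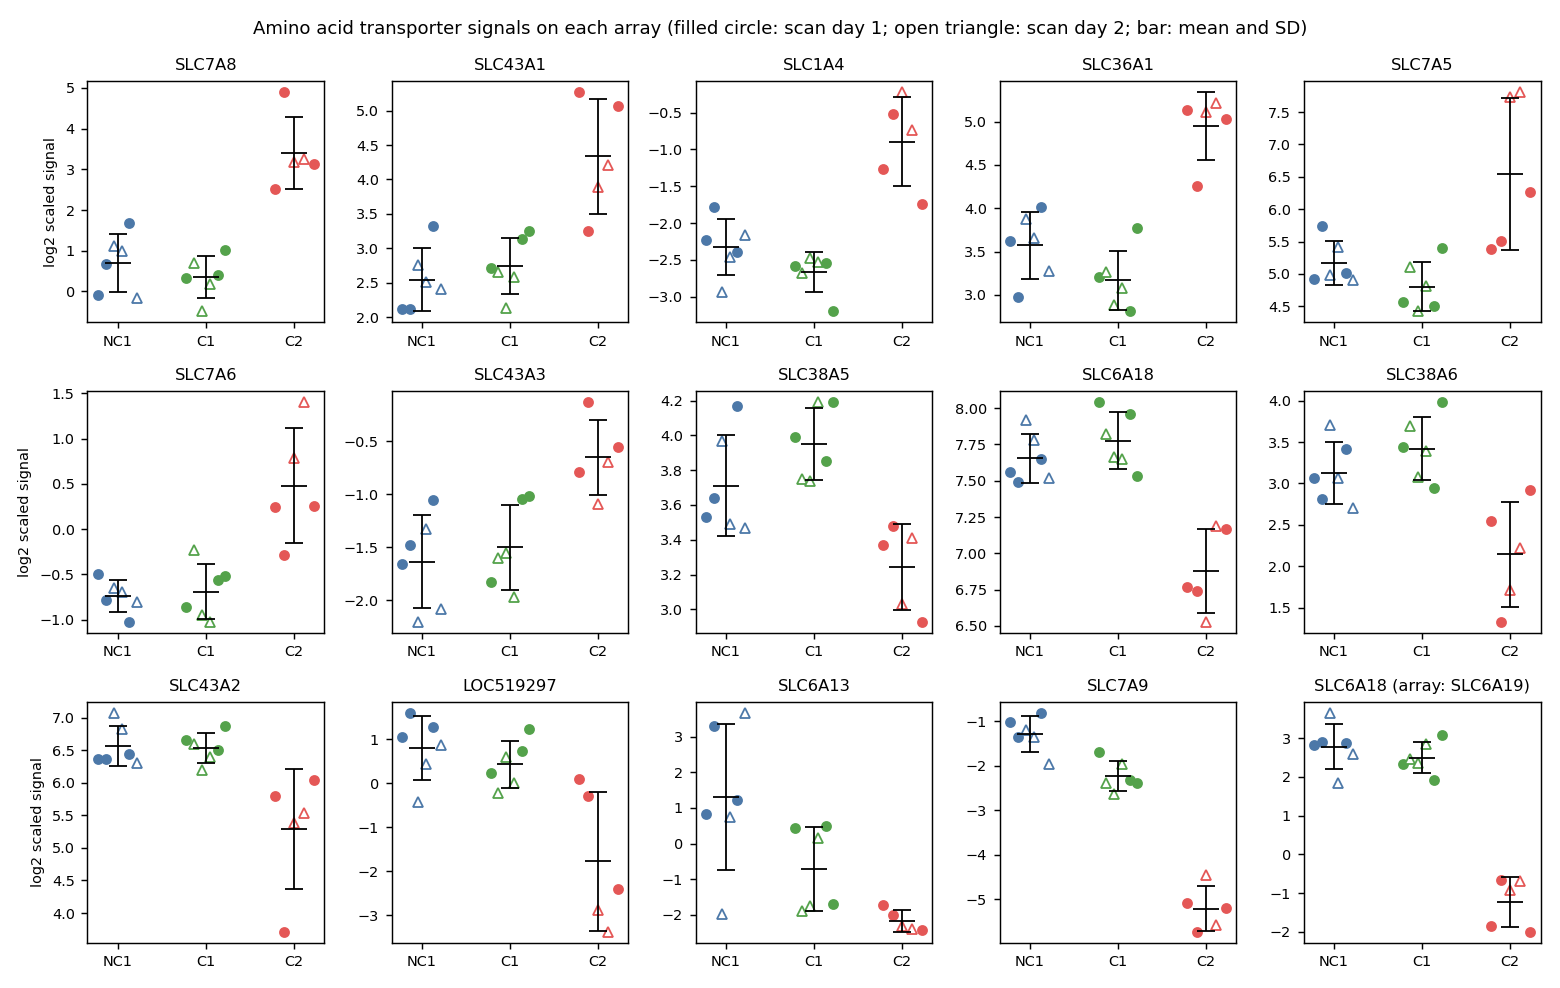
Log2 scaled signal (y axis, 0 is the median probe of the array) on each of the 17 arrays for the 14 called probes and SLC7A9, ordered from rises to falls, by stage (x axis). Filled circles are arrays of scan day 1, open triangles of scan day 2, and bars give the mean and SD of the stage; SLC7A8 and SLC36A1 lay above all other arrays at C2, and the SLC6A18 entry described as SLC6A19 below them.

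The C2 arrays differed among themselves more than those of the other stages. The median SD of the tested members was 0.39 at NC1, 0.35 at C1 and 0.70 at C2, next to 0.34, 0.33 and 0.50 for all tested probes. The arrays were scanned on 2 days, and C2 replicates 3 and 4 were those of day 2. Over all tested probes, the SD of the log2 difference between a pair of C2 arrays was 0.44 for replicates 1 and 5 and 0.51 for replicates 3 and 4, and 1.05 to 1.27 for the other 8 pairs, next to 0.43 to 0.69 between NC1 arrays and 0.45 to 0.76 between C1 arrays. With each of these close pairs averaged, 10 members differed among the stages in place of 13, and SLC38A5 and SLC43A3 against C1 and SLC7A5 against NC1 were no longer called (adjusted p = 0.019, 0.019 and 0.023). The C2 arrays of both days did not overlap for 15 of 33 members (45.5%, against 47.0% of all tested probes), and the means of the days were more than 1 apart for 13 members (39.4%, against 23.0%). In day 2 minus day 1 the widest gaps were those of SLC6A14 (4.97), SLC1A3 (2.96), SLC7A11 (2.75), SLC6A9 (-2.60) and SLC1A5 (2.55). Leukocyte markers summed to 107 and 108 on the C2 arrays of day 2 and to 66.0, 20.0 and 84.8 on those of day 1, and the part of scan day or of these cells in the gaps was not tested.

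The difference between C2 and C1 was also taken within each scan day. The calls rest on the same arrays, so that an equal sign on both days is partly fixed by the choice of called members. SLC7A8 differed by 2.93 on day 1 and 3.08 on day 2, SLC36A1 by 1.54 and 2.09, SLC43A1 by 1.49 and 1.59, and SLC6A18 by -0.95 and -0.85. The entry described as SLC6A19 differed by -3.95 and -3.37. SLC7A5, SLC7A6 and LOC519297 differed more on day 2 than on day 1. Members that were not called could differ in opposite directions on the 2 days. SLC1A5 was -0.40 on day 1 and 2.35 on day 2, SLC6A9 0.65 and -2.33, SLC6A8 0.68 and -1.68, and SLC6A14 -1.89 and 3.06. With the arrays of day 2 alone, 11 members were called higher at C2 than at C1 (16.6% of all probes) and 5 lower (12.7%). With those of day 1 alone 1 was higher (4.1% of all probes) and 2 were lower (5.71%).

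**Figure D4:**
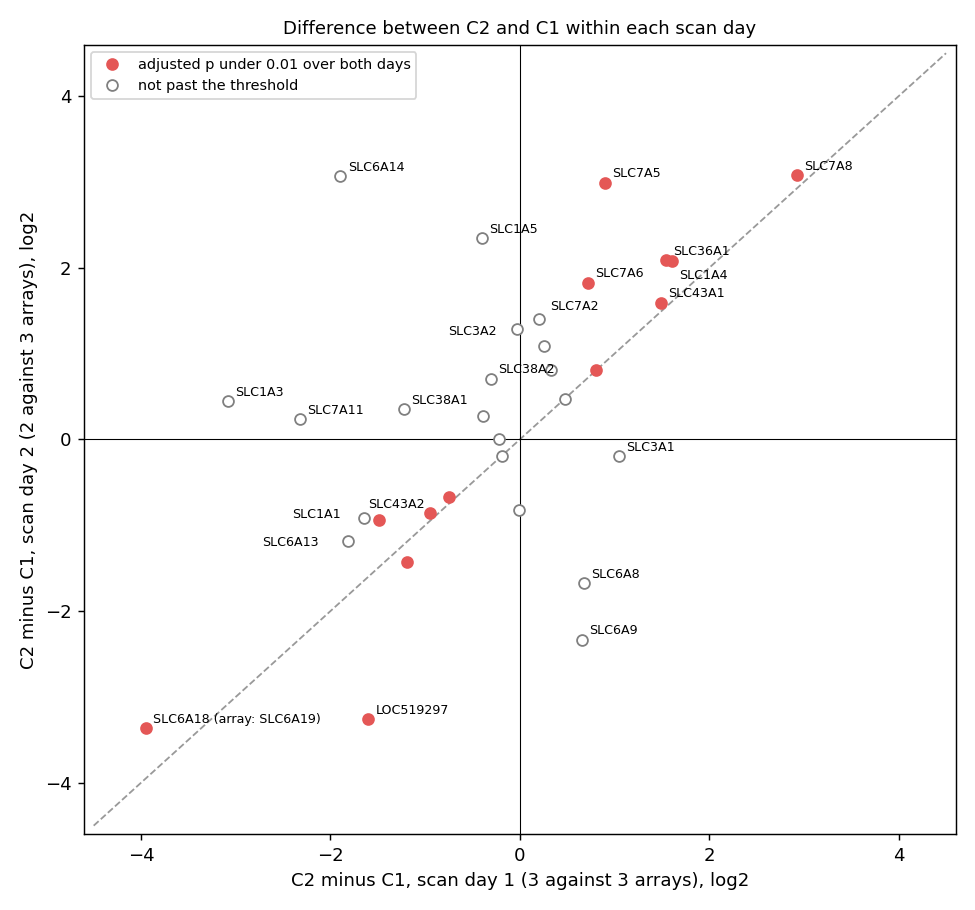
Difference of mean log2 scaled signal between C2 and C1 within scan day 1 (x axis, 3 against 3 arrays) and within scan day 2 (y axis, 2 against 3 arrays) for the 33 tested probes, with the dashed line where both are equal. Filled points were called over both days, from these same arrays, while SLC6A14, SLC1A5, SLC6A9 and SLC6A8 are among those of opposite sign.

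Some member genes lie close together in the cow genome. In RefSeq, SLC43A3 and SLC43A1 have 2 annotated genes between them, and both rose at C2. SLC36A2 and SLC36A1 are direct neighbours, of which SLC36A1 rose and SLC36A2 was -0.44 at C2 against C1 (adjusted p = 0.14 where tested in the fit with 2 of the 3 stages). SLC38A2 and SLC38A1 are neighbours too, with SLC38A4 3 genes away. SLC38A4 gained detection at C2, while SLC38A2 and SLC38A1 were already detected on all NC1 and C1 arrays and could not gain it. SLC7A8 and SLC7A7 have 22 genes between them. Several entries described as CAT-3 or similar to it (LOC532048, MGC139164, LOC506868, LOC504704, LOC515600, LOC513941 and LOC528568, in this order) follow each other with 0 to 11 annotated genes between them, where LOC506868 and LOC515600 were not detected on any array and LOC504704 and LOC513941 on all C1 and C2 arrays.

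Genes that use the amino acids these carriers bring were followed from lists of other amino acid pathways. Of the cytosolic aminoacyl-tRNA synthetases, which load amino acids onto tRNA, 7 of 19 tested genes were higher at C2 than at C1 and 0 lower, with a median difference of 0.61 next to 0.02 for all tested probes. Of all tested probes 15.3% were higher and 12.8% lower in this comparison, against which the counts of this and the following lists are to be read. The largest rises were those of SARS (1.57) and MARS (1.31), the synthetases for serine and methionine. At an unadjusted p under 0.05 in limma, 11 synthetases were higher and 1 lower. The share of all probes at this looser threshold was not computed, so these 2 counts cannot be set against it. Among the enzymes of serine, glycine, proline, glutamine and asparagine synthesis, 4 of 15 were higher and 1 lower. PSAT1 and PSPH, of the serine pathway, were higher by 3.20 and 2.73, and GPT, the cytosolic alanine aminotransferase, was lower by 4.35.

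Of the enzymes of amino acid breakdown, 7 of 14 were higher and 1 lower at C2 than at C1 (median 0.79). ARG2, the mitochondrial arginase, and PRODH, the proline dehydrogenase, were higher by 2.55 and 1.89, while TAT, the tyrosine aminotransferase, was lower by 2.61. ARG2 had a mean of 4.05 at NC1, 1.97 at C1 and 4.53 at C2, so that C1 was the low stage, and C2 did not differ from NC1 at the threshold (log2 0.47, adjusted p = 0.39). In glutathione and taurine synthesis 2 of 6 were higher and 1 lower: CDO1, which oxidises cysteine, by 2.75, GSR by 1.02 and GCLC, the catalytic subunit of glutamate-cysteine ligase, by -4.13. Of the stress response to lack of amino acids, 2 of 13 were higher and 5 lower. TRIB3 and EIF2AK4, the kinase GCN2 that senses uncharged tRNA, were higher by 2.96 and 2.58, and SESN2 and DDIT4, inhibitors of mTORC1, were lower by 2.39 and 1.89.

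Of the mTORC1 amino acid sensing genes, 6 of 23 were higher and 5 lower. EIF4EBP1, the inhibitor of translation that mTORC1 switches off, and LAMTOR1 of its lysosomal anchor were higher by 2.29 and 1.18, and LAMTOR4 and SESN2 were lower by 3.72 and 2.39. Among amino acid carriers of other families 1 of 7 was higher and 3 lower. SLC25A12, the mitochondrial aspartate-glutamate carrier, was higher by 3.34, and SLC15A4 and SLC15A1, carriers of histidine and of peptides, were lower by 1.14 and 0.94.

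**Figure D5:**
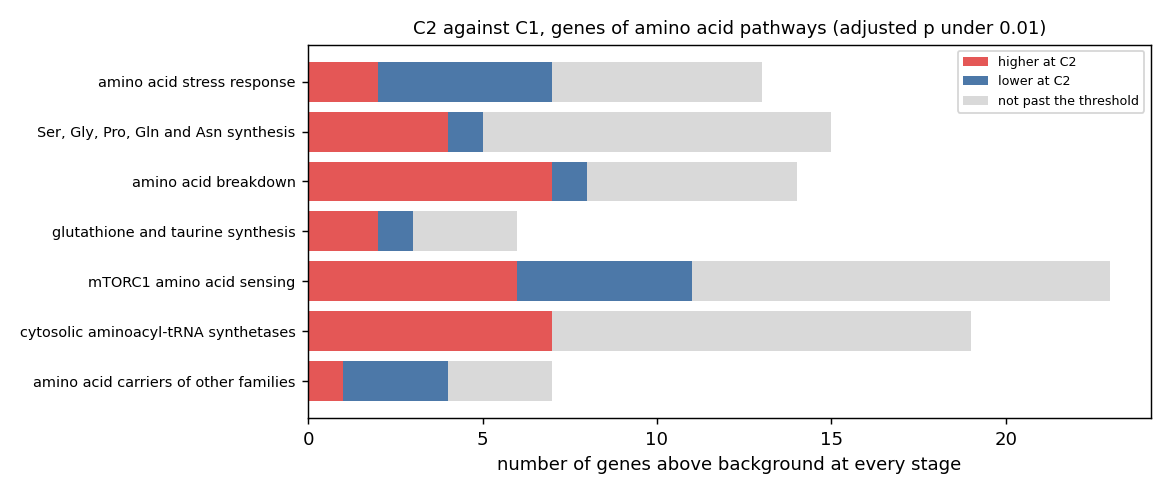
Number of genes (x axis) of 7 lists of amino acid pathways that were higher (red) or lower (blue) at C2 than at C1 at an adjusted p under 0.01, or not past this threshold (grey), among genes above background at every stage. Of the 19 tRNA synthetases 7 were higher and 0 lower, and of the 13 stress response genes 2 were higher and 5 lower.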

How the data were processed

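RNA of 17 cumulus cell samples was labelled with Cy3 and hybridised to 1-colour Agilent arrays, and per the file headers spot intensities were extracted, background-subtracted and processed with Feature Extraction 10.5.1.1. The log2 values of the deposited table were normalised by the authors, and after 1 shift per array they equalled the log2 of these intensities. Here the log2 processed intensities of a probe's spots were averaged and the median of the non-control probes of the array was subtracted. The 3 stages were fitted with limma 3.58.1 (R 4.3.3) over 13865 probes, with Benjamini-Hochberg adjustment over all of them and a threshold of 0.01, and the scripts were tested on simulated data. Exact permutation tests were two-sided. Every member gene with a tested probe was named, called ones with their values by array, members without one where 50% or more of the arrays of a stage detected them, and, outside this rule, those never detected; of other lists, the 2 largest called rises and falls between C1 and C2 were named. Members were named through RefSeq by accession (15 probes) or gene number (26), by the human name in the description (16), or as in the array files (7). The number of arrays limits the precision. Alternatives were other scalings, background correction, filters, tests, array weights, blocks (slide, scan day, replicate number), the deposited table and each array left out. The members and gene lists were chosen with earlier results of these data known.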

Additional observations from a re-analysis of the deposited data

Results flagged for a closer look

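Single arrays stood apart from the rest of their stage in 9 of the 99 groups formed by the 33 tested members and the 3 stages (9.09%). Normally distributed values give about 1 in 20, and the share over all tested probes was not computed. Each is given with its gap to the nearest array as a share of the range of the stage. Of these, 3 concern C2 replicate 2, which was the lowest C2 array for SLC36A1 (4.26 next to 5.03 to 5.22, a share of 0.805), for SLC7A7 (2.22 next to 3.47 to 3.78, 0.801) and for SLC43A2 (3.71 next to 5.38 to 6.04, 0.714). NC1 replicate 3 was the highest of its stage for SLC1A1 (3.26 next to 0.58 to 1.25, 0.75) and for SLC6A14 (0.85 next to 0.04 to 0.34, 0.634). C1 replicate 6 was the lowest for SLC1A4 (-3.20 next to -2.68 to -2.47, 0.712) and the highest for SLC3A2 (6.00 next to 5.19 to 5.49, 0.627). SLC1A7 was highest on C1 replicate 4 (-1.20 next to -1.34 to -1.30, 0.721), and SLC6A9 was lowest on NC1 replicate 5 (2.94 next to 4.75 to 5.66, 0.666).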

How the results depend on the processing

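The 13 members that differed among the stages became 4 in the one-factor test with unequal spreads and 2 on scan day 1 alone. The 7 members higher at C2 than at C1 became 2 with unequal spreads, 1 on day 1 alone and 11 on day 2 alone, and the 6 lower became 3 with unequal spreads and 2 on day 1 alone. Against NC1, the 7 higher became 2 with unequal spreads and 1 on day 1 alone, and the 6 lower became 1 with unequal spreads, 3 with normexp background correction, 3 on day 1 alone and 3 on day 2 alone. The scan-day analyses were chosen after seeing the data and hold fewer arrays; for the others the cause was not tested. Leaving out each array in turn gave 11 to 15 members that differed, 6 to 8 higher and 5 to 7 lower at C2 than at C1, 6 to 8 higher and 5 to 6 lower than at NC1, and 0 between C1 and NC1. Of 26 single calls, 20 held under every left-out array and 7 under all alternatives but the scan-day analyses, those of SLC7A8, SLC36A1 and the SLC6A18 entry described as SLC6A19 in both comparisons and that of SLC6A18 against C1. None of the 26 reversed.

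With the replicate number as a block, 11 members differed among the stages, 6 were higher and 6 lower at C2 than at C1, 6 higher and 6 lower than at NC1, and 0 differed between C1 and NC1. Same-numbered arrays of different stages correlated in their deviations between -0.32 and 0.25 (median -0.07, 16 pairs, 4 over 0.1), so the numbers were not taken as pairs. The calls lost with this block were those of SLC7A5 and SLC38A6 against NC1 and of SLC38A5 and SLC43A3 against C1. Small changes of dim probes are limited by signal over background.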
